A study of Danio rerio with 6 samples.

Results

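The genes described here encode carriers of the solute carrier (SLC) superfamily that move organic ions, amino acids, monocarboxylates and sugars across membranes. They were chosen by symbol, as slco, slc22a, slc47a, slc3a, slc7a, slc16a or slc2a genes with a mean of at least 10 normalized reads over the 6 libraries, a rule that uses no difference between the groups, although earlier results of these data were known when it was written. In all, 78 rows met this rule among the 20836 tested genes. They comprised 28 organic anion and cation carriers, 20 rows of the amino acid families, 15 monocarboxylate carriers and 15 sugar carriers. A further row, slc2a6, matched by symbol and was left out with a mean of 8.66, while the weakest row kept was slc2a5 with a mean of 14.6. One row of the amino acid group, slc7a6os, is named for its position opposite slc7a6 and does not encode a carrier. The symbol slco5a1a stood on 2 rows, and both were kept.

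RNA came from whole zebrafish embryos of the line Tg(c-mybhyper:GFP), a model with expanded myelopoiesis whose transgene both groups carried. Embryos were exposed from 30 hpf (hours post-fertilization) to 72 hpf to 60 µM Tan I (tanshinone I, a diterpene of Salvia miltiorrhiza that the study examined as an EZH2 inhibitor), or to the solvent DMSO. There were 3 libraries in each group, and nothing stated whether they came from separate clutches, so p-values measure the spread between these libraries, which may be technical. The comparison asks how transcript levels differ after Tan I, here for the carriers. In RNA from whole embryos, fewer cells of a type and less RNA per cell cannot be told apart.

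Carriers of these families divide the transport of small molecules among them. OATPs (slco genes) and members of the SLC22 family take up bile salts, steroid conjugates, drugs and other organic ions in liver and kidney, and MATEs (slc47 genes) expel organic cations. Most SLC7 proteins are light chains that need a heavy chain of the SLC3 family to reach the membrane, whereas the cationic amino acid transporters of SLC7 work alone. SLC16 proteins include the proton-coupled lactate carriers, which need basigin or embigin as a partner, and carriers of thyroid hormone and aromatic amino acids. SLC2 proteins (GLUTs) are facilitative carriers of glucose, fructose and related sugars.

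The recovered reads per library numbered 15874701 to 16959503 in DMSO and 20451593 to 24932190 in Tan I, so each Tan I library was the deeper. Every library gave at least 6 reads for each of the 78 rows. Markers of hepatocytes, pronephric tubule, enterocytes, endothelium, erythroid cells, pigment epithelium and the yolk syncytial layer were detected in all libraries, with no tested marker at 0 in any of them. The labels speak of embryonic cells, while the protocol took RNA from embryos.

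Tan I raised 6 carrier genes and lowered 1 at a limma adjusted p under 0.05. This was 8.97% of the 78 rows, beside 2.57% of all tested genes. For rises the shares were 7.69% and 2.07%, and for falls 1.28% and 0.504%. The 7 genes were slc7a7, slc2a11b, slc22a18, slco1d1, slc22a31 and slc22a7a, which rose, and slc22a16, which fell. Of these, 5 were organic anion and cation carriers (17.9% of that group), 1 was an amino acid carrier, 1 was a sugar carrier and 0 were monocarboxylate carriers. At an unadjusted p under 0.05, 5 of the 15 monocarboxylate carriers passed (33.3%) and 20 of the 78 rows (25.6%), beside 15.3% of all tested genes. DESeq2 and edgeR on the recovered reads also called 0 monocarboxylate carriers. Some other fits called 1 or 2, such as 1 with sample quality weights and 2 with a replicate block. The changes were moderate. No carrier had a log2 fold change of Tan I against DMSO (log2FC) beyond 1 in size. Such changes were rare among all genes too, at 225 of the 20836 tested, so their absence does not set the carriers apart. In 54 of the 78 rows (69.2%) the log2FC was under 0.25 in size, beside 77.9% of all tested genes.

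**Figure D1:**
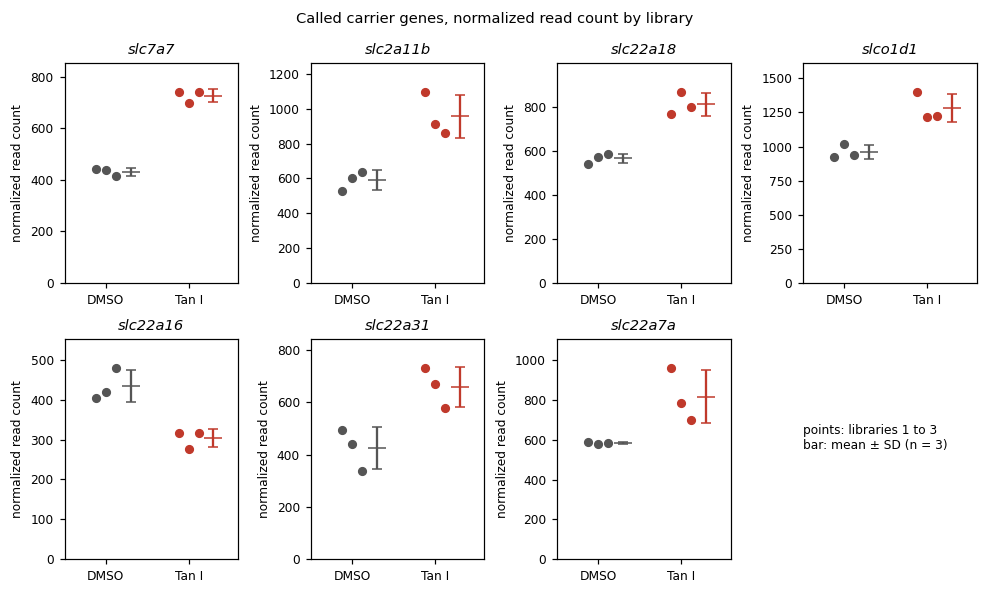
Normalized read count of the 7 called carrier genes in each of the 3 DMSO (grey) and 3 Tan I (red) libraries, with the mean ± SD beside the points and each axis starting at 0. In every panel the groups do not overlap, with slc22a16 lower and the other 6 genes higher in Tan I.

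The groups did not overlap for 22 of the 78 rows (28.2%), 13 with higher and 9 with lower values in Tan I. Among all tested genes 21.1% did not overlap, 10.7% higher and 10.4% lower. By group, the count was 12 of 28 for organic ions, 5 of 20 for amino acids, 2 of 15 for monocarboxylates and 3 of 15 for sugars. The median log2FC was 0.027 over the 78 rows, -0.062 for organic ion, -0.051 for amino acid, 0.15 for monocarboxylate and 0.14 for sugar carriers, beside -0.0067 for all tested genes. Leaving out single libraries moved these medians. Over the 78 rows the median was lowest at -0.0038 with DMSO replicate 3 omitted and highest at 0.068 with Tan I replicate 3 omitted. For organic ion carriers it was lowest at -0.11 (DMSO replicate 3 omitted) and highest at -0.027 (Tan I replicate 1 omitted), and for the amino acid rows the extremes were -0.11 (Tan I replicate 2 omitted) and 0.020 (Tan I replicate 3 omitted). The monocarboxylate median was 0.012 with Tan I replicate 1 omitted and 0.20 with Tan I replicate 3 omitted, and that of sugar carriers lay between 0.11 and 0.18. Sugar carriers lay above 0 in 12 of 15 cases, monocarboxylate carriers in 9 of 15, amino acid rows in 9 of 20 and organic ion carriers in 11 of 28. Among all tested genes 10110 of 20836 did. Because no set test was run, these medians are a description of the lists.

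**Figure D2:**
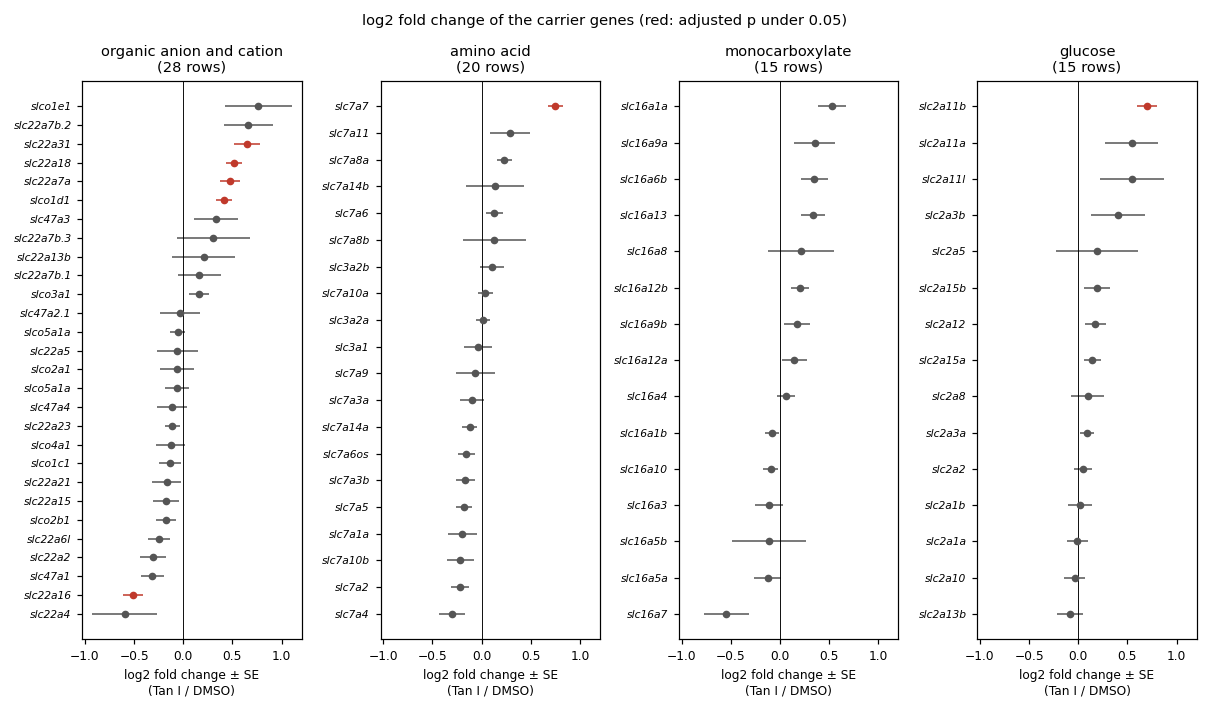
The log2 fold change of Tan I against DMSO (points, with SE as bars) for the 78 rows in their 4 groups, ordered by size within a group. The 7 called genes are red, the points lie between -0.59 for slc22a4 and 0.76 for slco1e1, and the widest bars belong to weakly counted rows.

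Among the organic ion carriers, slc22a18 (ENSDARG00000052271), an orphan carrier of the SLC22 family whose human counterpart lies in an imprinted cluster, gave normalized read counts of 541, 569 and 584 under DMSO and 764, 867 and 799 under Tan I. The lowest Tan I library thus lay above the highest DMSO library. The mean went from 565 ± 21.9 to 810 ± 52.3 (SD, n = 3), a log2FC of 0.52 ± 0.08 (SE) at a limma adjusted p of 0.00316. The call held whichever library was left out, and was lost without the mean-variance trend (limma adjusted p 0.0591).

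The gene slco1d1 (ENSDARG00000104108) encodes a zebrafish OATP that takes up steroid conjugates and bile salts. Its counts of 922, 1019 and 941 in DMSO and 1402, 1218 and 1227 in Tan I did not overlap. The log2FC was 0.41 ± 0.08 (SE) at a limma adjusted p of 0.0130, and it was called whichever single library was left out but not without the trend (limma adjusted p 0.129). In the RefSeq gene order (assembly GRCz12tu, used for order alone) slco1d1 lies beside slco1e1 (ENSDARG00000100780), another OATP gene. That gene had counts of 11.6, 10.9 and 8.90 in DMSO and 14.0, 24.3 and 18.1 in Tan I. These values did not overlap either, but the log2FC of 0.76 ± 0.34 (SE), from 8 to 26 reads in a library, was not called (limma adjusted p 0.311).

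For slc22a7a (ENSDARG00000056028), named after the mammalian organic anion transporter OAT2, the DMSO libraries lay close together at 587, 578 and 584. The Tan I libraries were spread more widely, at 962, 786 and 701, all above DMSO. Its log2FC was 0.47 ± 0.10 (SE, limma adjusted p 0.0292), and this was the least stable of the 7 calls. The limma adjusted p was 0.0677, 0.144 and 0.0774 without DMSO replicate 1, 2 or 3, 0.0745 and 0.0961 without Tan I replicate 1 or 2, and 0.188 without the trend.

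The other slc22a7 copies had lower counts. The gene slc22a7b.2 had 18.5, 21.9 and 24.5 in DMSO and 39.6, 34.6 and 30.1 in Tan I, groups that did not overlap, with a log2FC of 0.66 ± 0.25 (SE, limma adjusted p 0.225). For slc22a7b.1 the log2FC was 0.16 ± 0.22 and for slc22a7b.3 it was 0.31 ± 0.37 (SE), with limma adjusted p of 0.783 and 0.754. Whether the copies differed in their response was not tested, and copies with similar sequence can lose reads because multi-mapping reads had been removed.

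The gene slc22a31 (ENSDARG00000078882), an orphan member of the SLC22 family, had 496, 440 and 337 in DMSO and 732, 669 and 580 in Tan I. Both groups were spread widely, falling from replicate 1 to replicate 3 in each, and did not overlap. The mean rose from 424 ± 80.6 to 661 ± 76.6 (SD, n = 3), with a log2FC of 0.65 ± 0.13 (SE) at a limma adjusted p of 0.0194. It was called in 13 of 17 alternative fits, with a limma adjusted p of 0.000125 when the replicate numbers were taken as a block. Without DMSO replicate 2 the limma adjusted p was 0.0763, without Tan I replicate 1 or 2 it was 0.0941 or 0.0899, and without the trend 0.174.

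The single fall was that of slc22a16 (ENSDARG00000015869), whose human counterpart carries carnitine. Its counts were 405, 420 and 480 in DMSO and 316, 277 and 317 in Tan I, so that each Tan I library lay below each DMSO library. The DMSO mean of 435 ± 40.1 compared with 304 ± 23.0 for Tan I (SD, n = 3), a log2FC of -0.52 ± 0.10 (SE) at a limma adjusted p of 0.0163. The call was lost without DMSO replicate 2 or 3 (limma adjusted p 0.0738 and 0.0726), without Tan I replicate 2 (0.0961) and without the trend (0.102). The high-affinity carnitine carrier gene slc22a5 had 53.2, 65.6 and 57.8 in DMSO and 52.9, 45.9 and 73.1 in Tan I, groups that overlapped throughout. Among 10 genes of carnitine and creatine use, 1 was called. This was gamt, an enzyme of creatine synthesis, which fell (log2FC -0.41, limma adjusted p 0.00898). In the same list gatm was lower without overlap and was not called (log2FC -0.36, limma adjusted p 0.0515). The remaining genes of the list lay between -0.13 for slc6a8 and 0.22 for crata.

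Among carriers of organic cations, the MATE gene slc47a1 had 218, 192 and 219 in DMSO and 154, 173 and 178 in Tan I, which did not overlap, with a log2FC of -0.32 ± 0.12 (SE, limma adjusted p 0.220). For slc22a2, an organic cation transporter of the kidney in mammals, it was -0.31 ± 0.14 (SE, limma adjusted p 0.306), again without overlap between the groups. Neither was called in any of 17 alternative fits. The other MATE genes differed among themselves, with log2FC values of 0.33 for slc47a3, -0.11 for slc47a4 and -0.037 for slc47a2.1, and overlapping groups. The gene slc22a4, whose human counterpart carries ergothioneine, had 17.3, 19.4 and 16.7 in DMSO and 9.33, 10.3 and 15.5 in Tan I. All Tan I values were below DMSO, and the log2FC of -0.59 ± 0.33 (SE) at 11 reads or more in a library was not called (limma adjusted p 0.426). The SLC22 genes not yet named (slc22a6l, slc22a13b, slc22a15, slc22a21 and slc22a23) had overlapping groups and log2FC values from -0.25 for slc22a6l to 0.21 for slc22a13b.

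Among the other OATP genes, slco2b1 had a log2FC of -0.18 ± 0.10 (SE, limma adjusted p 0.428) with groups that did not overlap. The gene slco1c1, whose product carries thyroxine at the blood-brain barrier in mammals, had counts of 230, 216 and 190 in DMSO and 195, 189 and 193 in Tan I. Its log2FC of -0.14 had a 95% interval of -0.38 to 0.11 (limma). The remaining OATP genes slco2a1, slco3a1, slco4a1 and both rows of slco5a1a lay between -0.13 and 0.16. Of these, slco3a1 was higher in each Tan I library than in any DMSO library (limma adjusted p 0.497).

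These carriers are known from liver and kidney, so markers of both are given beside them. Of 12 hepatocyte markers, 0 were higher and 2 were lower, the transferrin gene tfa (log2FC -0.73) and serpina1l (-0.39). A further marker, fabp10a, was not called (log2FC -0.53, limma adjusted p 0.0895), and the median log2FC of the 12 was 0.00024. The summed hepatocyte level was 171560 to 186870 normalized reads in DMSO and 159510 to 184720 in Tan I, so the groups overlapped. Most of this sum came from apoa1b and apoa2 (log2FC 0.040 and -0.0045), so it says little about the other markers. Of 12 pronephric tubule markers 0 were called by limma, and 3 had an unadjusted p under 0.05, which 15.3% of all tested genes had, all with values higher in Tan I (cdh17, slc20a1a and slc12a3, at log2FC values of 0.26, 0.43 and 0.31). The tubule sum was 14356 to 16170 in DMSO and 15831 to 17422 in Tan I. Among 10 tested genes of bile acid and steroid handling, cyp7a1, the rate-limiting enzyme of bile acid synthesis, fell (log2FC -0.42, limma adjusted p 0.0205), and no other was called. The part of these markers in the values of slco1d1 and the slc22 genes was not tested.

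In the amino acid group the called gene was slc7a7 (ENSDARG00000055226), which encodes the light chain y+LAT1. In mammals this chain exports arginine and lysine in exchange for neutral amino acids, and in zebrafish it is also used as a marker of microglial precursors. Counts were 442, 440 and 414 in DMSO and 742, 698 and 741 in Tan I. Both groups were tight, and the gap between them was far wider than the spread within either. The mean rose from 432 ± 15.5 to 727 ± 24.6 (SD, n = 3), 1.68-fold, with a log2FC of 0.75 ± 0.08 (SE) at a limma adjusted p of 0.000136. It was called in all 17 alternative fits, where the log2FC ran from 0.72 to 0.78 and the adjusted p from 9.15e-11 to 0.0138, and it was the only carrier still called without the trend.

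The heavy chains that join such light chains did not pass the test. For slc3a2a the counts were 2835, 2778 and 2639 in DMSO and 2543, 2997 and 2801 in Tan I, and the log2FC of 0.013 had a 95% interval of -0.14 to 0.17 (limma). The copy slc3a2b had 2730, 2463 and 2114 in DMSO and 2976, 2813 and 2106 in Tan I. In each group replicate 3 was the lowest, and the groups overlapped, with a log2FC of 0.10 ± 0.12 (SE, limma adjusted p 0.738). The gene slc3a1, the heavy chain of the cystine carrier of kidney and gut, and its light chain slc7a9 had log2FC values of -0.037 and -0.065.

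Because slc7a7 also marks cells of the macrophage lineage and, in mammals, the basal membrane of gut and kidney tubules, markers of those cells are given beside it. Of 9 macrophage and microglia genes, a list added after the data were seen, 0 were called, with a median log2FC of 0.016. Individual values ranged from -0.80 for marco to 0.45 for csf1ra, which yellow pigment cells also express (limma adjusted p 0.207 and 0.0604). Also below 0 were mfap4 (-0.61), p2ry12 (-0.50) and mpeg1.1 (-0.15). Above 0 were apoeb (0.29), spi1b (0.23), lcp1 (0.14) and coro1a (0.016). The summed level of the 9 genes was 12338 to 13036 in DMSO and 13904 to 19068 in Tan I. Most of it came from apoeb, which was highest in Tan I replicate 1, so it says little about the other markers. Enterocyte genes moved both ways. Among 10, chia.2, anpepa and slc15a1b were called higher and fabp6 and rbp2a lower, beside 2.07% and 0.504% of all tested genes. The sum was 19948 to 21788 in DMSO and 21928 to 24224 in Tan I, without overlap. Its largest part came from apoa4b.1 (log2FC 0.13), so it says little about the other enterocyte genes. The part of these cells in the rise of slc7a7 was not tested.

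The cystine-glutamate exchanger gene slc7a11, a known target of Nrf2 and Atf4 in mammals, had counts of 75.1, 87.4 and 70.1 in DMSO and 113, 111 and 67.1 in Tan I. Tan I replicates 1 and 2 lay above DMSO, and Tan I replicate 3 lay below each DMSO library. The log2FC of 0.29 ± 0.21 (SE) had a 95% interval of -0.16 to 0.74 and a limma adjusted p of 0.553. Without Tan I replicate 3 it was 0.53 (limma adjusted p 0.144), and the adjusted p ran from 0.144 to 0.839 over its alternatives. Cystine is a precursor of glutathione. Of 14 tested genes from cystine to glutathione and its regulation, 6 were called higher and 0 lower. Among all tested genes 2.07% were called higher and 0.504% lower. The median log2FC of the 14 was 0.40. The 6 included gsr, glutathione reductase, at 0.84 (limma adjusted p 7.04e-05), keap1a, the Nrf2 repressor, at 0.92 (0.000266), and nfe2l2b, an Nrf2 gene, at 1.13 (0.00168). Genes of the list that were not called included gclm, gss, chac2 and gpx4a (limma adjusted p 0.223, 0.0687, 0.943 and 0.714). The difference between slc7a11 and these genes was not tested.

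None of the other amino acid carriers was called. For slc7a5, the light chain LAT1, the counts were 966, 854 and 864 in DMSO and 830, 806 and 732 in Tan I, which did not overlap, with a log2FC of -0.18 ± 0.08 (SE, limma adjusted p 0.317). The related LAT2 gene slc7a8a had 2711, 2580 and 2467 in DMSO and 3289, 3167 and 2689 in Tan I. Its log2FC of 0.23 ± 0.08 (SE) reached a limma adjusted p of 0.180, and of 0.0291 without Tan I replicate 3, the library that fell within DMSO.

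The cationic carrier slc7a2 had 576, 544 and 470 in DMSO and 466, 443 and 448 in Tan I, lower without overlap, and a log2FC of -0.22 ± 0.09 (SE, limma adjusted p 0.268). For slc7a4 the log2FC was -0.30 ± 0.13 (SE, limma adjusted p 0.293), with overlapping groups. Values of slc7a3b and slc7a14a were also lower in each Tan I library than in any DMSO library, at -0.17 and -0.12 (limma adjusted p 0.442 and 0.469). The gene slc7a6, a relative of slc7a7 with a similar exchange in mammals, had a log2FC of 0.13 ± 0.08 (SE, limma adjusted p 0.508). Its opposite-strand neighbour slc7a6os had -0.16 ± 0.09 (SE, limma adjusted p 0.414). Since the use of strand in counting was not stated, reads from any stretch that both genes share may not have been told apart. Whether they share one was not looked up. The amino acid genes not yet named (slc7a1a, slc7a3a, slc7a8b, slc7a10a, slc7a10b and slc7a14b) had overlapping groups and log2FC values from -0.22 for slc7a10b to 0.13 for slc7a14b.

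Outside these families, 28 other amino acid and peptide carrier genes held 2 called genes, both higher. They were slc15a1b, the intestinal peptide carrier (log2FC 0.69, limma adjusted p 0.00628), and slc1a2a, a glutamate carrier (0.44, 0.00663). Among 18 tested genes of the amino acid response and Atf4, 0 were called, and their median log2FC was 0.16. Several had an unadjusted limma p under 0.05, which 15.3% of all tested genes had, and all of these were higher. They were atf3 (log2FC 0.73), cebpb (0.545), pycr1a (0.47), sesn2 (0.40), ddit3 (0.25), psph (0.20), psat1 (0.16) and atf4b (0.16).

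Within the monocarboxylate group the smallest p belonged to slc16a1a (ENSDARG00000016963), a copy of the lactate and pyruvate carrier MCT1. It had 170, 130 and 136 in DMSO and 187, 237 and 205 in Tan I, so the groups did not overlap. The log2FC was 0.53 ± 0.14 (SE) at a limma adjusted p of 0.0755. It passed the threshold in 3 of 17 alternatives, among them the fit without DMSO replicate 1 (limma adjusted p 0.0389) and that with sample quality weights (0.0110), in a range of 0.0110 to 0.299 over its alternatives.

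The other copy, slc16a1b, had 1454, 1525 and 1367 in DMSO and 1426, 1388 and 1298 in Tan I, with a log2FC of -0.079 and a 95% interval of -0.23 to 0.075 (limma). The difference between the copies was not tested. The lactate exporter gene slc16a3 had a log2FC of -0.11 ± 0.14, and slc16a7, the MCT2 gene, -0.54 ± 0.23 (SE), with limma adjusted p of 0.769 and 0.283. For the partner protein basigin, bsg had a log2FC of 0.071 (limma adjusted p 0.629). Of 14 genes for partners of these carriers and for lactate and pyruvate use, 0 were called.

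The orphan carrier gene slc16a13 had 191, 238 and 258 in DMSO and 277, 281 and 301 in Tan I, higher without overlap, with a log2FC of 0.33 ± 0.12 (SE, limma adjusted p 0.212). For slc16a6b, a relative of the zebrafish ketone body carrier, the counts were 750, 661 and 665 in DMSO and 1012, 1014 and 666 in Tan I. Replicates 1 and 2 of Tan I were alike and replicate 3 lay at the level of DMSO. The log2FC was 0.35 ± 0.14 (SE) at a limma adjusted p of 0.237, and 0.55 with 0.00276 without Tan I replicate 3. The aromatic amino acid and thyroid hormone carrier gene slc16a10 had a log2FC of -0.094 ± 0.077 (SE, limma adjusted p 0.608). The monocarboxylate genes not yet named apart from slc16a9a and slc16a9b (slc16a4, slc16a5a, slc16a5b, slc16a8, slc16a12a and slc16a12b) had overlapping groups, with log2FC values from -0.13 for slc16a5a to 0.21 for slc16a8. Of 9 tested thyroid hormone genes, 1 was called, ttr, which encodes a carrier protein of the hormone in plasma and fell (log2FC -1.35, limma adjusted p 0.000426).

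**Figure D3:**
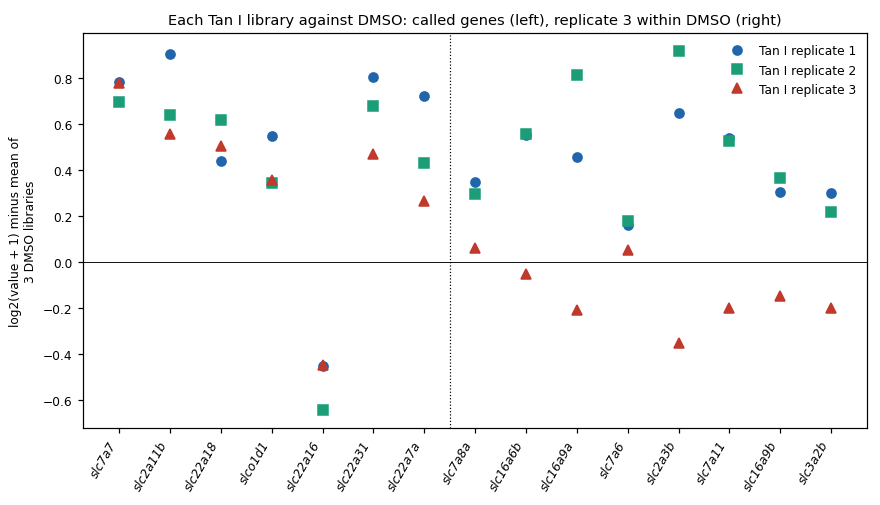
The log2(value + 1) of each Tan I library minus the mean of the 3 DMSO libraries, for the 7 called genes (left of the dotted line) and for 8 rows in which Tan I replicates 1 and 2 exceeded each DMSO library and replicate 3 did not (right). On the left all 3 libraries lie on the same side of 0. On the right replicate 3 had to lie below the other 2, because the rows were chosen so. Its values there lie between -0.35 for slc2a3b and 0.057 for slc7a8a.

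A pattern of this kind, with Tan I replicates 1 and 2 above each DMSO library and replicate 3 not, was seen in 8 of the 78 rows (10.3%), beside 6.76% of all tested genes. The rows were slc3a2b, slc7a6, slc7a8a, slc7a11, slc16a6b, slc16a9a, slc16a9b and slc2a3b, chosen after their values were seen. They comprised 4 of the 20 amino acid rows, 3 of the 15 monocarboxylate carriers, 1 of the 15 sugar carriers and 0 of the 28 organic ion carriers. Without Tan I replicate 3, 10 carrier genes were called, while calls over all tested genes went from 536 to 709. These were the 7 genes named above together with slc7a8a, slc16a6b and slc16a9a, the last at a log2FC of 0.63 (limma adjusted p 0.0355). The added genes are among the 8 rows chosen by the low replicate 3, so their calls are no separate evidence for the pattern.

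Among sugar carriers slc2a11b (ENSDARG00000063288), a member of the GLUT family named after human GLUT11, was called. Its counts were 526, 602 and 638 in DMSO and 1098, 914 and 862 in Tan I. Each Tan I library lay above each DMSO library. The mean rose from 589 ± 57.4 to 958 ± 124 (SD, n = 3), 1.63-fold, with a log2FC of 0.70 ± 0.10 (SE) at a limma adjusted p of 0.00218. It was called in 16 of 17 alternative fits and not without the trend (limma adjusted p 0.0788).

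Its relatives slc2a11a and slc2a11l, with 9 to 43 reads in a library, had log2FC values of 0.54 ± 0.27 and 0.54 ± 0.33 (SE), and limma adjusted p of 0.363 and 0.463. The genes slc2a15a and slc2a15b, the latter needed for yellow and white pigment cells in medaka, had 0.14 and 0.19 (limma adjusted p 0.481 and 0.533). Values of slc2a15a were higher in each Tan I library than in any DMSO library, and those of slc2a15b overlapped. As slc2a11 and slc2a15 genes are expressed in pigment cells of fish, markers of pigmented cells are given beside them. The list is one of pigment epithelium and was not chosen for yellow or white pigment cells, so it cannot show how those changed. The gene csf1ra, which yellow pigment cells also express, had a log2FC of 0.45 (limma adjusted p 0.0604). Of 8 pigment epithelium markers, some shared with skin melanophores, 3 rose and 0 fell. They were tyrp1b (log2FC 0.35, limma adjusted p 0.00898), rpe65a (0.36, 0.0264) and rlbp1b (0.49, 0.0457). The uncalled markers went both ways, with best1 at 0.34, dct at 0.25, pmela at 0.030, stra6 at -0.082 and lrata at -0.44. The sum of the 8 was 13219 to 13771 in DMSO and 14986 to 16661 in Tan I, without overlap. Most of it came from tyrp1b, pmela and rpe65a, so it says little about the weaker markers. The part of these cells in the rise of slc2a11b was not tested.

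None of the GLUT1, GLUT2 and GLUT3 genes was called. For slc2a1a, a GLUT1 gene of the blood-brain barrier, the counts were 386, 301 and 310 in DMSO and 321, 342 and 322 in Tan I, and the log2FC of -0.010 had a 95% interval of -0.25 to 0.23 (limma). The copy slc2a1b had 0.017 with an interval of -0.25 to 0.28. The hepatic and intestinal carrier gene slc2a2 had 299, 328 and 347 in DMSO and 337, 325 and 344 in Tan I, overlapping groups with a log2FC of 0.049 and an interval of -0.16 to 0.26. For slc2a3a, the GLUT3 gene of neurons, the log2FC was 0.090 with an interval of -0.063 to 0.24. The intervals of these 4 genes leave out changes larger than 0.284 on the log2 scale in either direction. The other GLUT3 copy, slc2a3b, had 78.6, 59.5 and 58.9 in DMSO and 103, 124 and 50.8 in Tan I, with Tan I replicate 3 below each DMSO library. Its log2FC of 0.40 had a wider interval, of -0.19 to 1.00 (limma adjusted p 0.527). As slc2a1a and slco1c1 are known from brain endothelium and slc2a1 also from red cells in mammals, markers of both are given. Of 10 endothelial markers 1 was called, plvapa, which rose (log2FC 0.74), and the median was 0.14. The genes cldn5a, cldn5b and mfsd2aa had 0.00099, 0.29 and -0.15. The list covers endothelium in general and not brain vessels alone. Its sum was 5897.1 to 6089.5 in DMSO and 6064.7 to 7277.2 in Tan I. Of 10 erythroid markers 0 were called by limma, with a median of -0.12, and the sum was 34024 to 38572 in DMSO and 29937 to 31648 in Tan I, without overlap. Most of the erythroid sum came from the globin gene hbae3 (log2FC -0.33), so it says little about the other markers. Those ran from -0.61 for gata1a to 0.51 for nt5c2l1. The part of endothelial and red cells in these values was not tested.

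The intracellular carrier gene slc2a8 had a log2FC of 0.094, slc2a10 had -0.035 and the myo-inositol carrier gene slc2a13b had -0.082, with limma adjusted p between 0.816 and 0.912. The gene slc2a12 was higher in each Tan I library than in any DMSO library, at 0.17 (limma adjusted p 0.483), and slc2a5, whose mammalian counterpart carries fructose, had 0.19 from 6 to 24 reads in a library. The median log2FC of 21 genes of hexose use and hypoxia was -0.012.

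**Figure D4:**
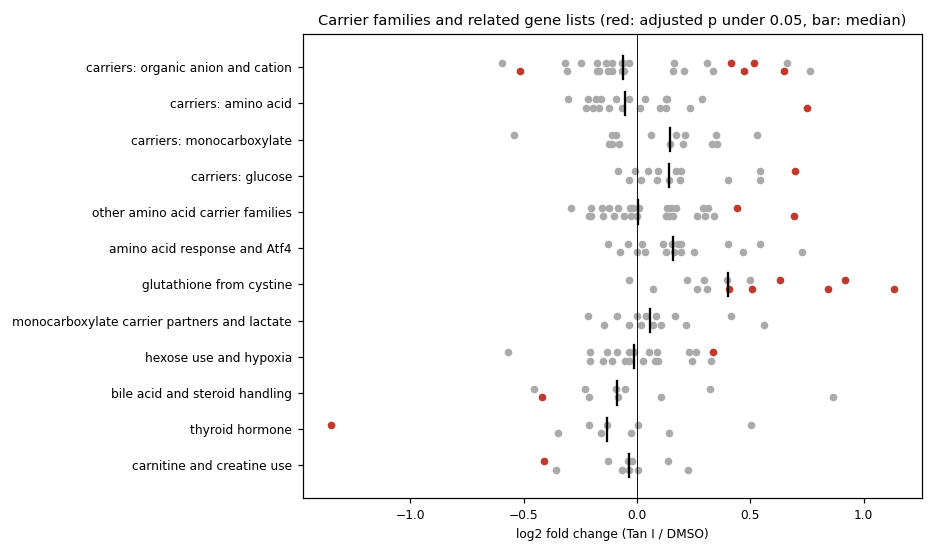
The log2FC of each gene in the 4 carrier groups and in 8 related gene lists, with called genes in red and a black bar at each median. The list from cystine to glutathione and its regulation holds 6 red points among 14 genes and a median of 0.40. Among all tested genes 2.57% were called. The carrier groups have medians between -0.062 and 0.15.

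Neighbours of the called genes were looked up in the RefSeq order. Of the 7 genes, 6 were matched by symbol, and 8 of their neighbours were among the tested genes. Their log2FC values lay between -0.12 for oxa1l and 0.76 for slco1e1, and none was called by limma, with adjusted p between 0.311 and 0.922.

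**Figure D5:**
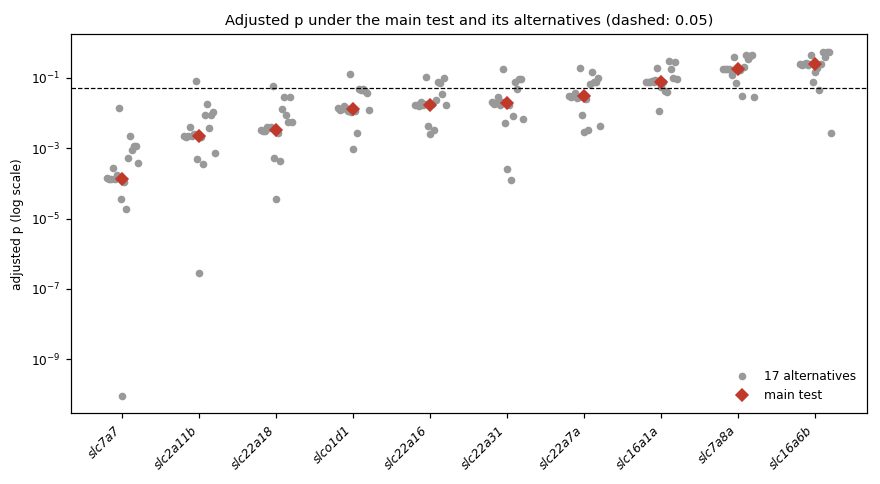
Adjusted p on a log scale under the main limma test (red diamonds) and under 17 alternative fits (grey points) for the 7 called genes and for slc16a1a, slc7a8a and slc16a6b, with 0.05 as a dashed line. Points of slc7a7 all lie below the line, those of slc22a7a lie on both sides, and slc16a1a, slc7a8a and slc16a6b have 3, 2 and 2 points below it.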

How the data were processed

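RNA of 6 libraries was compared, 3 per group. Per the study's methods, paired-end reads were aligned to GRCz11 with STAR, multi-mapping reads were removed, genes were counted with featureCounts, and DESeq2 was used (versions not given in the sources used here). The deposited signal values are read counts scaled by the authors with 1 size factor for each library, and their mean stands in a further signal column. The authors' log2 fold changes, test scores and p-values were also deposited and were not used. Dividing by the smallest step of each library gave whole reads (100% of values within a tolerance of 0.01 reads). Read totals sum the 21317 rows of the table, whose lowest mean was 7.54, and are not the full depth.

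Genes with a mean of at least 10 were tested on log2(value + 1), which understates changes of weak genes, with limma 3.58.1 in R 4.3.3 (mean-variance trend, no covariates, 2-sided), and Benjamini-Hochberg adjusted p under 0.05 over all 20836 genes was called. DESeq2 1.42.0 and edgeR 4.0.16 on recovered reads were alternatives, beside other pseudocounts (0.1 and 10), filters, scalings, weights, a replicate block and omission of single libraries. Tests were tried on simulated data.

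Members and lists were chosen with earlier results of these data known. Named genes were all called carriers, the 3 rises and 3 falls of smallest p in each group, and a fixed list, of which 20 were tested. Those named beyond this were chosen after their values were seen. Sequences and coordinates are not shown.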

Additional observations from a re-analysis of the deposited data

How the results depend on the processing

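Directions of the 7 called genes held in all 17 alternatives. The 7 called carriers became 1, slc7a7, without the mean-variance trend, where 0 organic ion and 0 sugar carriers and 165 of all tested genes (536 in the main test) were called. Sample quality weights gave 984 of all tested genes and 1 monocarboxylate carrier. With the replicate block, 1093 of all tested genes, 2 amino acid and 2 monocarboxylate carriers were called, adding slc7a8a, slc16a1a and slc16a6b (limma adjusted p 0.0297, 0.0421 and 0.0444). Deviations of same-numbered libraries correlated at 0.0815, -0.0289 and 0.208 across genes. Those of libraries with different numbers correlated between -0.181 (DMSO 1 with Tan I 3) and 0.103 (DMSO 1 with Tan I 2). The main test did not take the numbers as pairs, since the study's methods named no covariates. A correlation over all genes cannot show whether some genes share an order of replicates. For replicates 1 to 3, egln3 had 1013, 443 and 77.9 in DMSO and 918, 445 and 103 in Tan I. The gene pdk2b had 1219, 653 and 241 in DMSO and 1347, 1059 and 434 in Tan I. Other listed genes also fell from replicate 1 to replicate 3 in both groups, among them nr0b2a, klf9, slc38a4, txnipa, txnipb, pdk2a and g6pca.1. All of these were picked after their values were seen, and how many genes did likewise was not counted. Whether same-numbered libraries shared a source was not tested. Leaving out 1 library gave 213 to 709 of all tested genes, 4 to 10 carriers (4 without DMSO replicate 2 or Tan I replicate 2), 2 to 5 organic ion, 1 to 2 amino acid and 0 to 2 monocarboxylate carriers, and the amino acid median ran from -0.11 to 0.020. With a mean of at least 100, the median was -0.035 over 57 carriers, -0.12 over organic ion carriers and 0.090 over sugar carriers. No alternative moved the median of all tested genes by more than 0.012 (log2).

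Among uncalled genes, the log2FC of slc2a1a was 0.058 with sample quality weights and -0.010 in the main test. Leaving out 1 library, log2 fold changes crossed 0 for slc2a1a (-0.077 to 0.10), slc2a1b (-0.069 to 0.15), slc2a2 (-0.0082 to 0.098), slc2a8 (-0.049 to 0.18), slc2a10 (-0.083 to 0.0029), slc3a2a (-0.043 to 0.076), slc16a3 (-0.28 to 0.032), slc22a5 (-0.25 to 0.083) and slc47a2.1 (-0.17 to 0.10). Leaving out slc7a6os was an alternative added after seeing the data. As that row was not called, the counts of called genes could not change. The median log2FC was then 0.0375 over all carriers (0.0273 in the main test). Over the amino acid rows it was -0.0372 (-0.0512 in the main test). The causes were not tested.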
